A study of Mus musculus with 21 samples.

Results

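The genes described here are Pde10a, Epha5, Nav3, Slc6a17, Chsy3, Hmga2, Etv1 and Ajap1, 8 of the 32285 genes in the files. They were chosen by measured values, with earlier results of these data known: their levels in melanoma cells, the difference between metastasis and primary tumor at equal depth, and their levels in host cells. Those 3 kinds of value are therefore given as a description, with no test. Melanoma cells were taken as cells in which Pmel, Dct, Mlana and Tyrp1, 4 genes of pigment production, together made up 0.5% or more of the unique molecular identifiers (UMIs, each standing for 1 captured RNA molecule). The gate held 54066 of 100359 cells.

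The mice were mT/mG hosts of both sexes, young adults at transplantation, which carry a membrane-bound tdTomato reporter in every cell. They received subcutaneous fragments of MT-ret melanoma, a tumor driven by the RET oncogene and passaged in mice, and the fragments lack the reporter. Primary tumors were surgically resected at a set volume, and lung metastases were taken later. Site therefore cannot be told apart from time and resection. Primary tumors and lung metastases were each sorted into tdTomato-positive host cells (TME) and tumor cells (MM), and lungs of unchallenged mice without a tumor were the control. Some TME sorts also removed CD45-positive leukocytes, so that shares of leukocytes are set in part by the sort. Cells were counted with the 3′ chemistry of 10x Genomics. All tumors grew from biobanked fragments, and p-values over libraries measure the spread between these libraries.

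After 5 library names with the same cells as another name were set aside, 19 names were left. The labels list replicates 1 to 3 of each TME group as 1 sample. The run 1 names of mice 2 and 3 (metastasis TME) and of mice 1, 2 and 3 (primary tumor TME) were therefore joined into 1 library per group. The 16 libraries were 4 of unchallenged lung, 4 of metastasis TME, 4 of primary tumor TME, 2 of sorted metastasis cells (mice 17 and 14) and 2 of sorted primary tumor cells (mice 13 and 17). The metastasis name of mouse 21 that the labels list as MM holds the cells of the metastasis TME of mouse 18 and was counted there. Gated cells were 98.5% to 99.8% of 3 sorted libraries, but 40.3% of the 638 cells of the metastasis of mouse 14, where 257 remained. A further 148 of those 638 cells lay under the gate in a cluster with raised melanoma markers, against 7 to 91 cells in the other 3 sorted libraries. Depth differed as well. The median gated cell held 4004 UMIs in the metastasis of mouse 17, 4591 in that of mouse 14, 1654 in the primary tumor of mouse 13 and 3664 in that of mouse 17. At most 227 barcodes were shared between any pair of libraries.

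The members fall into several families. Hmga2, a DNA-bending protein of embryonic chromatin, is a textbook target of the let-7 microRNAs, which silence it as tissues mature. Etv1 is an ETS transcription factor of the PEA3 group, whose output rises with ERK signaling below receptor kinases such as RET. Epha5 is a receptor kinase for ephrins, Nav3 a microtubule-binding neuron navigator, Slc6a17 a vesicle transporter of neutral amino acids in neurons, Pde10a a phosphodiesterase that breaks down cyclic nucleotides, Chsy3 an enzyme that builds chondroitin sulfate chains, and Ajap1 a membrane protein of adherens junctions. Melanocytes derive from the neural crest, which also gives rise to peripheral neurons and glia.

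The sequence that sets Hmga2 apart from the other members is that of its let-7 sites. Capitals mark the seed of let-7a (bases 2 to 8, RefSeq, GRCm38.p6 chr13:48538239-48538260, minus strand) and the matching letters in the Hmga2 transcript after its stop codon (GENCODE vM21, GRCm38, minus strand of chr10).
let-7a-5p: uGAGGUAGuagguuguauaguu
Hmga2 site 1, chr10:120364224-120364244: cgacattcaatttCTACCTCa
Hmga2 site 2, chr10:120362987-120363007: ccactcctcaataCTACCTCt
Hmga2 site 3, chr10:120362549-120362569: gatttgcaaggaaCTACCTCc
Hmga2 site 4, chr10:120361691-120361711: tcaaaacacactaCTACCTCt
These are the 4 matches to the seed in the 2977 bases after the stop codon. No such match was present in the transcripts of the other 7 members. Of 21877 protein-coding genes, 9.14% hold at least 1 match and 12 hold as many as Hmga2. A match is a description of the letters, and let-7 itself was not measured here.

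Both start windows of Slc6a17, the member with the largest difference between the sorted metastasis and primary libraries, held a motif. Windows run from 250 bases before to 50 after the start (RefSeq, GRCm38.p6, minus strand). Capitals mark CATGTG, an E-box bound by factors such as MITF, and TGANTCA, the AP-1 motif, both searched on either strand.
Slc6a17, chr3:107517969-107518268: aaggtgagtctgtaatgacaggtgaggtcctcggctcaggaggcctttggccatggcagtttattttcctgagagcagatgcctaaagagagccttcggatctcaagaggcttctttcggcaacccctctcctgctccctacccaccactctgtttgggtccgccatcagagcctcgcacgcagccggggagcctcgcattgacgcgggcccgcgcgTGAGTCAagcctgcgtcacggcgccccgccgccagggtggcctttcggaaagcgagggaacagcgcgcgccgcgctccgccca
Slc6a17, chr3:107500691-107500990: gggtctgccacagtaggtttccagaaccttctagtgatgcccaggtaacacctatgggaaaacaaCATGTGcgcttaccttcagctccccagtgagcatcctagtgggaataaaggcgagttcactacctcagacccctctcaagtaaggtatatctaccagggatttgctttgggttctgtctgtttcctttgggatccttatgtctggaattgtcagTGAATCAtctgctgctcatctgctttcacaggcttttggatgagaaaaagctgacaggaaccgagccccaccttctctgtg
CATGTG was present in 14.2% and TGANTCA in 7.81% of all 32851 windows. The same search, with CACGTG (7.15% of windows), CCGGAA (14.9%) and TTTGAA (17.9%) added, found 1 match, CATGTG, in the other 7 windows (Ajap1, Epha5, Hmga2, Etv1 and Pde10a), at the second start of Etv1. Nav3 and Chsy3 were not searched.

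Melanoma cells expressed the 8 genes at levels far above unchallenged lung. Levels are in CPM, the UMIs of a gene summed over cells and scaled to the summed UMIs of those cells. Since each transcript is counted at its 3′ end, levels are compared between libraries and not between genes. In the 4 sorted libraries Hmga2 ranged from 187 to 362 CPM and Nav3 from 140 to 299. In host cells of the 4 unchallenged lungs Hmga2 ranged from 0.549 to 1.87 CPM and Nav3 from 0.162 to 0.579. The highest lung values of Epha5, Chsy3, Pde10a and Slc6a17 were 0.71, 1.25, 1.46 and 0.325 CPM. Ajap1 was at 0 in 3 lungs and at 0.0374 CPM in the fourth. Etv1 ranged from 5.14 to 7.55 CPM in lung. These lung values are for all host cells of a lung summed, and such levels were used to choose the members. By cell class, Etv1 reached 171 CPM in fibroblast cluster 14 of 1 lung, within its range of 85.2 to 220 CPM in sorted melanoma cells.

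**Figure D1:**
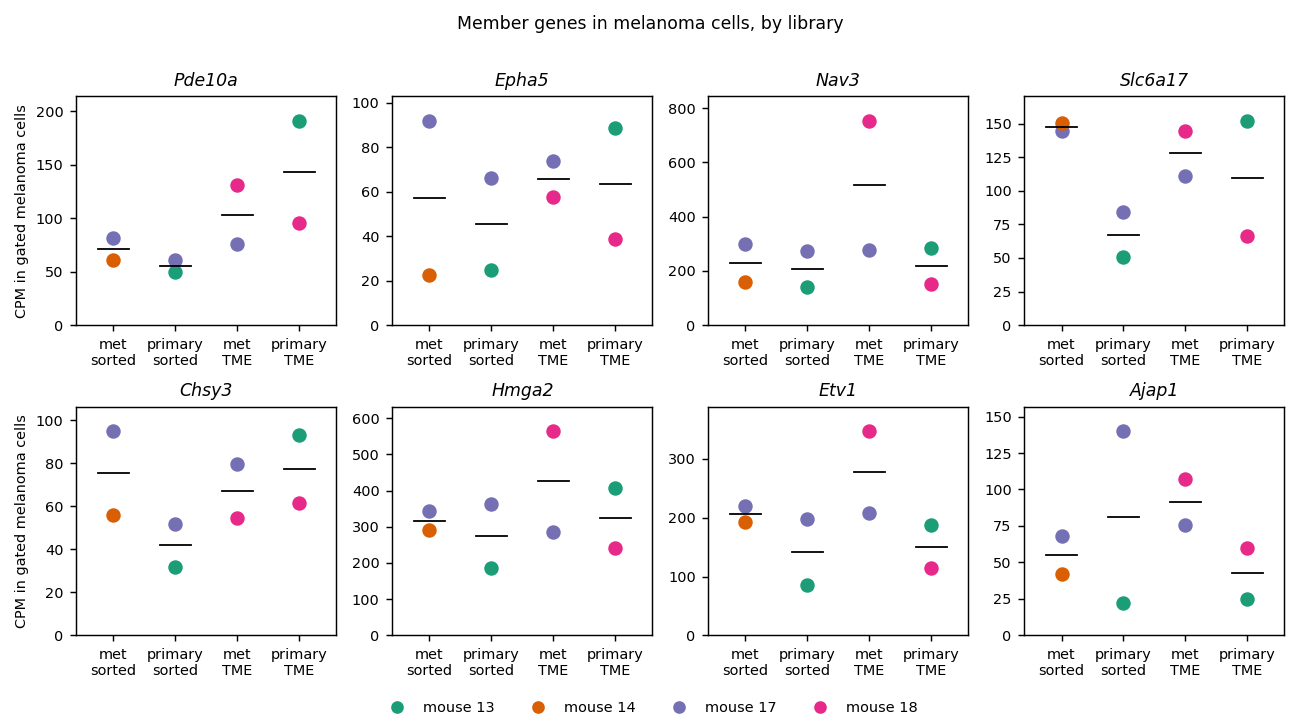
CPM of each member gene in gated melanoma cells (vertical axis, from 0) by group, for libraries with at least 50 such cells. Each point is 1 library colored by mouse and the bars are group means; Slc6a17 is higher in both sorted metastasis libraries (145 and 151 CPM) than in both sorted primary tumor libraries (50.4 and 84.4 CPM).

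Slc6a17 was the member whose sorted libraries stood farthest apart. It was at 145 CPM in the metastasis of mouse 17 and 151 in that of mouse 14, against 50.4 in the primary tumor of mouse 13 and 84.4 in that of mouse 17. Both metastasis libraries were above both primary ones, and the fitted difference was 1.08 ± 0.36 on the log2 scale (SE). At 1000 UMIs per cell the share of cells with a Slc6a17 UMI was 14.4% (exact 95% interval 13.8 to 15.1) and 14.5% (10.4 to 19.5) in metastasis and 4.27% (4.04 to 4.51) and 8.39% (7.72 to 9.09) in primary tumor. Intervals cover counting error only. The values of mouse 14 leave out its 148 melanoma-like cells under the gate. In such cells Slc6a17 was at 37.6 to 65.0 CPM in 3 metastasis libraries and 21.3 to 42.3 in 4 primary tumor libraries.

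Chsy3 also had its libraries apart, at 95 and 55.9 CPM in the metastases of mice 17 and 14 and 31.8 and 52.0 in the primary tumors of mice 13 and 17. The fitted difference was 0.82 on the log2 scale. The lower metastasis and the higher primary library lay within 4 CPM of each other. Both metastasis libraries were above both primary libraries for 14.0% of the 14363 genes tested, and below both for 13.1%, so that the 2 of 8 members with separate libraries are a description of them.

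The other 6 members had overlapping libraries in CPM. Etv1 was at 220 and 193 CPM in the metastases (mice 17 and 14) and 85.2 and 198 in the primary tumors (mice 13 and 17). In the share of cells at 1000 UMIs its libraries were apart, at 18.8% and 18.1% against 6.84% and 17.9%. Hmga2 was at 345 and 290 CPM against 187 and 362. Nav3 was at 299 and 158 against 140 and 275, and Epha5 at 91.8 and 22.4 against 24.7 and 66.3. For Nav3, Epha5, Hmga2, Etv1, Ajap1 and Pde10a, both run 3 libraries of mouse 17 were above both run 2 libraries of mice 14 and 13. Mouse and run cannot be told apart there. For Pde10a the closest of these values were 61.2 and 61.1 CPM. The share of all genes with this order was not computed, so that it is a description.

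Pde10a lay between 49.3 and 81.7 CPM in all 4. Ajap1 had its highest value in a primary tumor, with 68.0 and 41.7 CPM in metastasis against 22.4 in the primary tumor of mouse 13 and 140 in that of mouse 17. Across all genes, 1 gene passed edgeR's quasi-likelihood test at an adjusted p under 0.05, which is 0.00696% of those tested, and 537 were under an unadjusted p of 0.05. The gene that passed, named after its value was seen, is no member: Ank3, a membrane anchor of ion channels, fell by 3.11 on the log2 scale (adjusted p = 0.0458).

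Within libraries, the level of most members changed with the depth of the cell. Cells with 3000 to 6000 UMIs had higher CPM than cells under 1500 UMIs in 7 of 8 libraries for Nav3, Hmga2 and Etv1. Of the libraries with over 3 UMIs of a gene in both ranges, the same held in 6 of 6 for Slc6a17, 3 of 3 for Pde10a and Epha5, 4 of 5 for Chsy3 and 4 of 6 for Ajap1. In the sorted libraries other than the primary tumor of mouse 13, 45 to 120 cells lay under 1500 UMIs, and they held 2 to 3 Pde10a UMIs. Above 6000 UMIs the levels of Pde10a, Epha5, Nav3, Slc6a17 and Hmga2 were lower again in 4 of 4 sorted libraries, as in the primary tumor of mouse 17 with Epha5 at 98.8 and then 43.8 CPM. In the primary tumor of mouse 13 Pde10a rose from 11.8 to 261 CPM, Epha5 from 12.8 to 87.4, Hmga2 from 150 to 400 and Ajap1 from 21.2 to 28.8 between these depths. The mitochondrial share moved with depth as well. Its median was 1.2% under 1500 UMIs and 1.0% from 1500 to 3000 in that library, where 8356 and 20343 of its 30328 cells lay, and 11.1% from 3000 to 6000 UMIs. The part of the mitochondrial share in these values was not tested.

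**Figure D2:**
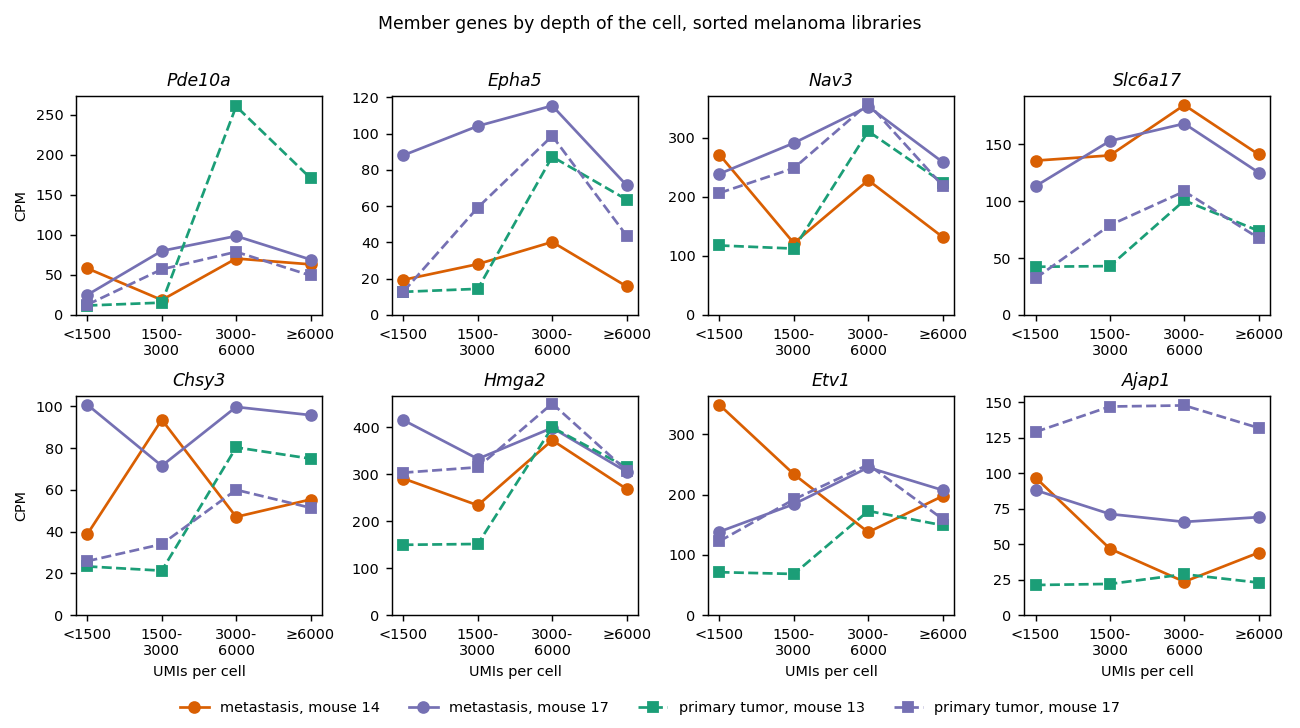
CPM of each member (vertical axis, from 0) in gated melanoma cells of the 4 sorted libraries, by UMIs per cell. Each line is 1 library, solid for metastasis and dashed for primary tumor; in the primary tumor of mouse 13 Pde10a is at 11.8 CPM under 1500 UMIs and 261 CPM from 3000 to 6000 UMIs.

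At 3000 to 6000 UMIs per cell the libraries were closer for several members. Hmga2 was at 399 and 373 CPM in the metastases of mice 17 and 14 and 400 and 451 in the primary tumors of mice 13 and 17. Slc6a17 still had both metastasis values (168 and 185 CPM) above both primary values (101 and 109). With cells of at least 3000 UMIs, an alternative added after the data were seen, the fitted log2 difference was 0.89 ± 0.25 (SE) for Slc6a17 and -0.77 ± 0.49 for Pde10a. It was 0.31 ± 0.33 for Chsy3, -0.08 ± 0.25 for Hmga2, -0.14 ± 0.32 for Nav3 and -0.15 ± 0.48 for Epha5. The difference at equal depth was used to choose the members, so these values are a description with no test.

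Melanoma cells were also present in TME sorts, of mice 17 and 18 for metastasis and of mice 13 and 18 for primary tumor. In the metastasis TME of mouse 17, with 4028 gated cells, Slc6a17 was at 111 CPM and Hmga2 at 286. The metastasis TME of mouse 18, with 217, had the highest Nav3 (753 CPM) and Hmga2 (565 CPM) of any melanoma library with at least 50 gated cells. In the primary tumor TME of mouse 13, with 178 gated cells of a median 5250 UMIs, Slc6a17 was at 152 CPM and Pde10a at 191, against 50.4 and 49.3 in the shallower sorted library of that tumor. Slc6a17 thus lay at 111 and 145 CPM in the metastasis TME libraries and at 152 and 66.4 CPM in those of primary tumors, which overlap. Chsy3 overlapped as well, at 54.6 and 79.7 CPM in metastasis and 61.7 and 93.2 in primary tumor TME libraries. With these libraries in the fit the log2 difference was 0.62 ± 0.29 (SE) for Slc6a17 and 0.28 ± 0.31 for Chsy3. The metastasis of mouse 17 and the primary tumor of mouse 13 entered that fit both as MM and as TME, with no block. Its SE therefore treats sorts of the same tumor as separate replicates. The primary tumor TME of mouse 18 held 1309 gated cells of a median 1064 UMIs with Col1a1, a fibroblast collagen gene, at 1146 CPM.

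A further pair of differences among melanoma cells of 1 library was not used to choose the members and was tested. The first is cycling. Cells thinned to 1000 UMIs were called cycling with 3 or more UMIs of 25 cell cycle genes and other with 0, and sums per library were compared with the library as a block (edgeR quasi-likelihood test, Benjamini-Hochberg over 11730 genes). Of the genes tested 6.45% passed, 4.68% higher and 1.76% lower in cycling cells. Of the 8 members 4 fell in cycling cells and 0 rose.

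The members that fell were Pde10a, Epha5, Chsy3 and Slc6a17, and the libraries with over 3 UMIs in both classes were lower in cycling cells, 4 of 4 for Slc6a17 and 3 of 3 for the others. Chsy3 was at 72.1 CPM in cycling and 99.1 in other cells of the metastasis of mouse 17, 20.7 and 59.9 in that of mouse 14, 25.4 and 43.0 in the primary tumor of mouse 13, and 32.9 and 58.5 in that of mouse 17. Its log2 change was -0.70 ± 0.11 (SE, adjusted p = 4.4e-04). The cycling cells of the metastasis of mouse 14 held 3 Chsy3 UMIs, and each of the other 3 libraries had the lower value in its cycling cells. Epha5 was at 57.5, 6.89, 20.6 and 50.2 CPM in cycling and 95.5, 24.5, 35.2 and 67.1 in other cells of the same libraries in that order (log2 change -0.67 ± 0.10, adjusted p = 4.6e-04).

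Pde10a was at 75.4, 13.8, 30.1 and 41.9 CPM in cycling and 81.0, 73.6, 82.6 and 65.2 in other cells of these libraries, with a log2 change of -0.77 ± 0.17 (adjusted p = 0.0097). The gap was small in the metastasis of mouse 17 and large in the primary tumor of mouse 13, and without the latter the change was -0.39. Slc6a17 had a change of -0.38 ± 0.09 (adjusted p = 0.0126), which lost its call without either library of mouse 17 (adjusted p = 0.200 and 0.230), with changes of -0.39 and -0.37 then. Cycling cells of the metastasis of mouse 14 numbered 24 and held 2 UMIs of Pde10a, 1 of Epha5 and 3 of Chsy3, at or under the floor of 3 counts, so that for these genes that library sets no direction. Without it their log2 changes were -0.73, -0.65 and -0.67 (adjusted p = 0.0228, 9.9e-04 and 0.0010). In that library the median cycling cell held 5244 UMIs and the median other cell 4665, the widest gap of the 4. Markers of host cells differed as well, with summed neutrophil markers at 6.89 CPM in cycling and 78.5 in other cells and macrophage markers at 55.1 and 102 in that library, and fibroblast markers at 17.1 and 30.0 in the primary tumor of mouse 17. Depth was uneven in the primary tumor of mouse 13, where 228 of 5526 cycling and 783 of 7332 other cells held at least 3000 UMIs. Pde10a was there at 11.8 CPM under 1500 UMIs, 15.4 from 1500 to 3000, 261 from 3000 to 6000 and 171 above 6000. With cells of at least 3000 UMIs, and with cells thinned to 1000 UMIs, Pde10a, Epha5 and Chsy3 still passed the edgeR test. Of all genes 26.3% passed in the former and 179 of 9387 in the latter. Slc6a17 passed in 8 of 14 alternatives. Beyond these refits, the part of depth and of host markers in the differences with cycling was not tested.

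Hmga2, Etv1, Nav3 and Ajap1 did not pass. Etv1 had a log2 change of -0.30 ± 0.10 (adjusted p = 0.103), Hmga2 of -0.22 ± 0.11 (adjusted p = 0.289), Nav3 of -0.19 ± 0.10 (adjusted p = 0.337) and Ajap1 of 0.23 ± 0.10 (adjusted p = 0.194). Of these, Hmga2 and Etv1 were lower and Ajap1 was higher in cycling cells of 4 of 4 libraries, and Nav3 was lower in 3 of 4. With cells of at least 3000 UMIs alone, Nav3 (-0.24, adjusted p = 0.0118), Etv1 (-0.19, 0.0482) and Ajap1 (0.22, 0.0431) passed, and Hmga2 did not (0.138), where 26.3% of all genes tested passed. The difference of the change between the tissues was tested for each member as an interaction, and none passed (lowest adjusted p = 0.273, Pde10a).

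**Figure D3:**
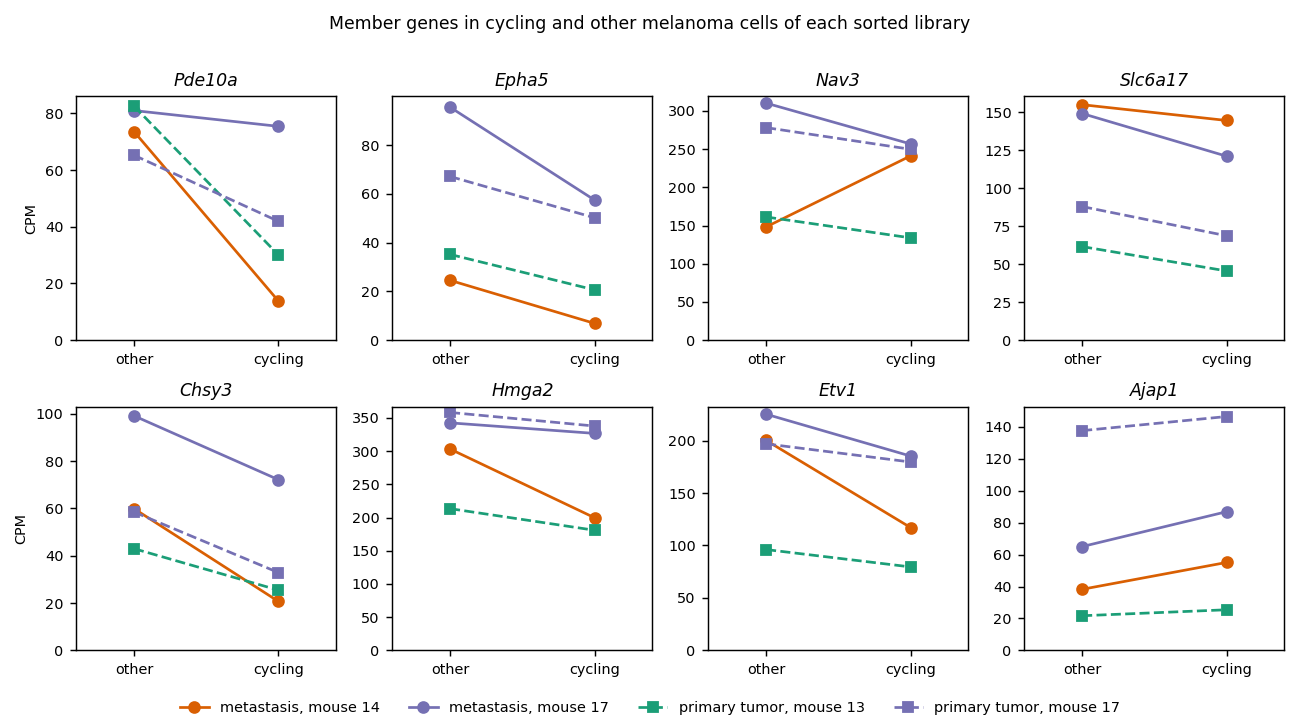
CPM of each member (vertical axis, from 0) in other and cycling melanoma cells, 1 line for each of the 4 sorted libraries, solid for metastasis and dashed for primary tumor. Slc6a17, Hmga2 and Etv1 are lower and Ajap1 is higher in cycling cells of 4 of 4 libraries, and Pde10a, Epha5 and Chsy3 are lower in 3 of 3, with 3 UMIs or fewer in the cycling cells of the metastasis of mouse 14.

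The second difference is pigmentation. Gated cells of each library were ranked by the share of the 4 pigment genes, and the lower tertile was compared with the upper in the same kind of fit, with those 4 genes left out. Of 12587 genes tested 3.92% passed, 2.57% higher and 1.35% lower in the less pigmented tertile. Of the 8 members 3 were lower (Chsy3, Slc6a17 and Epha5) and 1 was higher (Ajap1) in the less pigmented cells.

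Ajap1 was at 92.7 CPM in the lower and 51.4 in the upper tertile of the metastasis of mouse 17, 52.6 and 22.2 in that of mouse 14, 24.2 and 20.3 in the primary tumor of mouse 13, and 177 and 103 in that of mouse 17. The lower tertile was the higher one in 4 of 4 libraries, by a log2 change of 0.60 ± 0.11 (adjusted p = 0.0131). Slc6a17 went the other way in 4 of 4, with 109, 133, 51.0 and 57.0 CPM in the lower and 168, 167, 55.1 and 111 in the upper tertile of these libraries (-0.64 ± 0.12, adjusted p = 0.0184). The gaps of both genes were small in the shallow primary tumor of mouse 13.

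Chsy3 was lower in the less pigmented tertile of 3 of 4 libraries, at 65.8, 70.8, 29.9 and 25 CPM against 118, 46.6, 37.2 and 77.8, with the metastasis of mouse 14 opposed (log2 change -0.91 ± 0.18, adjusted p = 0.0184). Epha5 was at 69.4, 25.1, 25.8 and 49.1 CPM against 103, 24.4, 26.7 and 81.2 (-0.53 ± 0.11, adjusted p = 0.0259). Its libraries of mice 14 and 13 hardly differed, so that the gap is that of mouse 17. Without the metastasis of mouse 17 the adjusted p of Ajap1, Slc6a17, Chsy3 and Epha5 was 0.305, 0.202, 0.173 and 0.395, and without the primary tumor of that mouse 0.154, 0.266, 0.154 and 0.306. Their log2 changes were then 0.51, -0.61, -0.88 and -0.45 without that metastasis and 0.53, -0.50, -0.60 and -0.40 without that primary tumor, so that the direction held with fewer libraries. Without the metastasis of mouse 14, Slc6a17 and Epha5 were at an adjusted p of 0.0502, with changes of -0.63 and -0.53.

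Pde10a had a change of -0.68 ± 0.21 that did not pass (adjusted p = 0.0962). Hmga2 (0.13 ± 0.14), Etv1 (0.07 ± 0.10) and Nav3 (-0.04 ± 0.12) had adjusted p of 0.649, 0.745 and 0.890. Cycling and pigmentation overlapped, as 15 of 25 cell cycle genes were higher in the less pigmented tertile. Among cells with no cycle gene UMI, an alternative added later, the changes were 0.82 for Ajap1 (adjusted p = 2.8e-04), -0.69 for Slc6a17 (0.0019), -1.0 for Chsy3 (0.0015), -0.56 for Epha5 (0.0030) and -0.63 for Pde10a (0.0284), where 5.36% of all genes passed. The fall in cycling cells within the middle tertile of pigmentation remained past the test for Epha5, Chsy3 and Pde10a (adjusted p = 0.0012, 0.0113 and 0.0379) and not for Slc6a17 (0.398), and Etv1 passed there with a log2 change of -0.42 (0.0140). Of all genes 2.74% passed in that tertile. No member passed the interaction of pigmentation with tissue, where the lowest adjusted p was 0.9999.

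**Figure D4:**
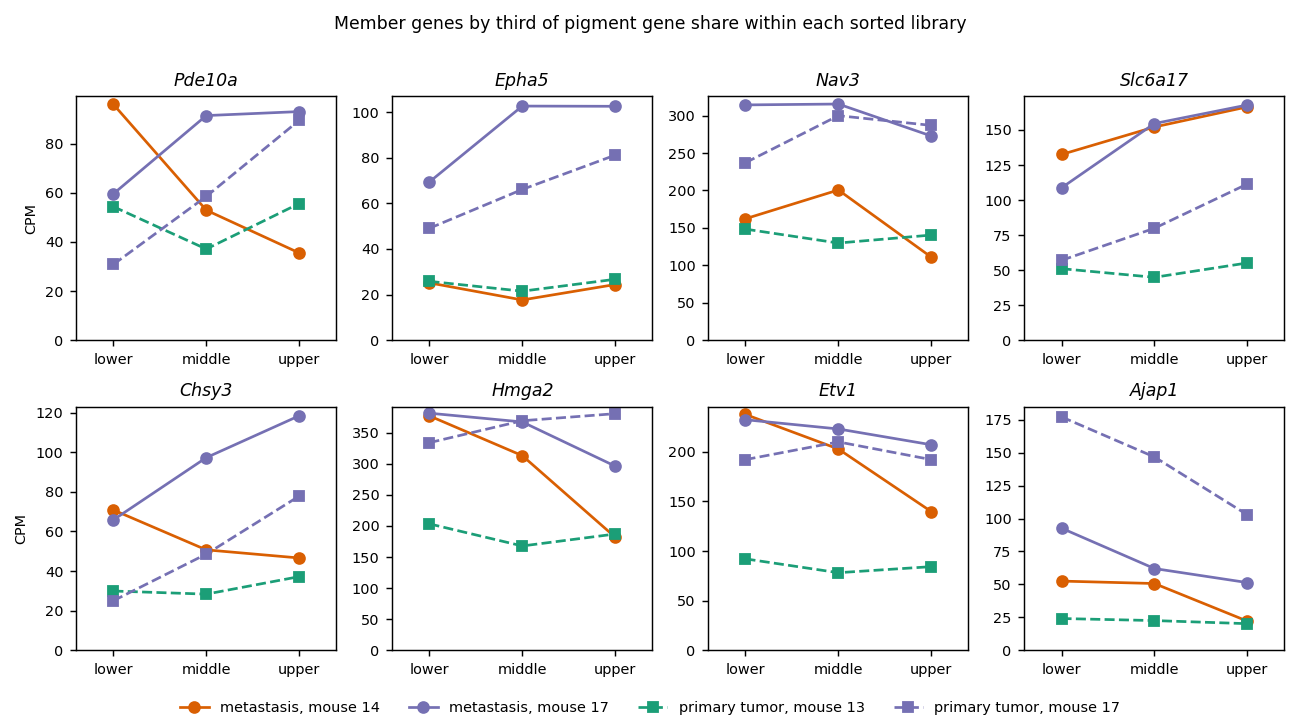
CPM of each member (vertical axis, from 0) in the lower, middle and upper tertile of pigment gene share, 1 line for each of the 4 sorted libraries, solid for metastasis and dashed for primary tumor. Ajap1 falls from the lower to the upper tertile in 4 of 4 libraries (92.7 to 51.4 CPM in the metastasis of mouse 17) and Slc6a17 is higher in the upper tertile of 4 of 4.

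Markers of host cells moved with the tertiles in some libraries. The summed fibroblast markers were at 52.8 CPM in the lower and 8.55 in the upper tertile of the primary tumor of mouse 17, and the neutrophil markers at 153 and 22.2 in the metastasis of mouse 14. Over all gated cells, 8 fibroblast markers together ranged from 4.70 to 25.7 CPM in the 4 sorted libraries. Gated cells of the metastasis of mouse 14 stood apart for leukocyte markers, with summed neutrophil, macrophage and B cell markers at 63.4, 99.1 and 47.0 CPM, against at most 2.56, 13.3 and 0.333 in the other 3. The tertiles of mouse 17 also differed in depth and mitochondrial share. In its metastasis the median cell of the lower tertile held 4030 UMIs at 12% mitochondrial, against 4576 UMIs at 7.66% in the upper, and in its primary tumor 3564 UMIs at 11.5% against 4112 at 10.1%. With cells of at least 3000 UMIs, Ajap1, Slc6a17, Chsy3 and Epha5 still passed the edgeR test, as did 2146 of all 11551 genes. With cells thinned to 1000 UMIs, Ajap1, Slc6a17 and Chsy3 passed and Epha5 did not, and 97 of 10282 genes passed. Beyond these refits, the part of the markers, of depth and of the mitochondrial share in the tertile differences was not tested. The other melanoma markers, outside the 4 of the gate, summed to 3760 to 5124 CPM in these libraries.

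Other genes of the members' families were taken from lists chosen with earlier results known. Of 17 tested genes of ERK output and the PEA3 factors, 2 rose in cycling cells: Etv4 by 0.67 ± 0.13 (adjusted p = 0.0038) and Etv5 by 0.39 ± 0.09 (0.0183), the paralogs of Etv1. Of 18 tested in the tertiles, 2 were higher in less pigmented cells: Spry1, an ERK feedback inhibitor, by 0.42 (0.0250) and Etv5 by 0.41 (0.0489). The list's median log2 changes were 0.00 and 0.15, beside -0.02 and -0.00 over all genes.

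Of the 13 other phosphodiesterases tested, 2 rose and 2 fell in cycling cells. Pde5a, specific for cGMP, and Pde3b rose by 0.52 and 0.68 (adjusted p = 0.0229 and 0.0497), while Pde4d and Pde7b, both specific for cAMP, fell by 0.89 and 0.71 on the log2 scale (9.6e-05 and 0.0022). Of 14 tested in the tertiles, Pde4d fell in less pigmented cells by 0.65 (0.0318).

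Of the oncofetal let-7 targets other than Hmga2, 11 were tested with cycling and 12 with pigmentation. Ccnd2, a cyclin of the G1 phase, fell in cycling cells by 0.61 ± 0.11 (adjusted p = 0.0017) and in less pigmented cells by 0.56 ± 0.12 (0.0267), and no other passed in either. In the chondroitin sulfate list 0 of 17 passed with cycling and 2 of 17 were higher in less pigmented cells: Xylt1, which starts the chains, by 1.36 (0.0028), and Cspg4, a core protein that carries them, by 0.67 (0.0328), opposite to Chsy3.

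Of 16 cadherin junction genes tested with cycling, Cdh6 was higher by 0.65 and Cdh13 lower by 0.89 on the log2 scale in cycling cells (adjusted p = 0.0366 and 0.0036). Of 13 genes of synapses and neuronal adhesion Syt11 was higher by 0.48 and Dlgap1 lower by 0.45 (0.0246 and 0.0254). Of 10 other Eph receptors and ephrins and 5 other SLC6 transporters 0 passed there in edgeR, and 1 of them, Epha7, had an unadjusted p under 0.05 (0.0365, log2 change -0.78).

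In less pigmented cells the ephrin Efnb2 was higher by 1.14 (adjusted p = 0.0028), 1 of 12 tested of its list. L1cam, a neural adhesion molecule, was higher by 0.99 (0.0095) and was 1 of 13 in the synapse list. Slc6a9, a glycine transporter, was higher by 0.63 (0.0300), 1 of 5 tested of its family. Of 16 cadherin junction genes Jup and Cdh6 were higher, by 0.44 and 0.69 (0.0349 and 0.0489). Among microtubule genes Gap43 and Map2 were higher, by 0.90 and 0.99 (0.0137 and 0.0298), and Mapre3 was lower by 0.32 on the log2 scale (0.0464).

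The same lists had no called gene between metastasis and primary tumor. In cycling cells 4 of 17 genes of the microtubule list rose and 1 fell. Stmn1, Map2 and Mapre1 rose by 1.02, 0.96 and 0.40 (adjusted p = 9.8e-04, 0.0060 and 0.0108), and Nav2, a paralog of Nav3, fell by 0.43 on the log2 scale (0.0198). Of the 12 pigment genes outside the gate 8 were lower in the less pigmented tertile, among them Trpm1 and Tyr by -1.41 and -1.09 (0.0081 and 0.0181), and 2 were lower in cycling cells. Over all genes, 324 were called higher and 170 lower in that tertile with all 4 libraries. Without the metastasis of mouse 17 these counts were 26 and 4, and without its primary tumor 14 and 1. Most tertile falls in these lists thus lost their call with either library left out. Calls of higher genes dropped likewise over all genes, and the rises in these lists were not followed singly.

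Cells under the gate were clustered apart. The 730 cells of a melanoma-like cluster under 0.5% held the members in unequal shares. Hmga2 was at 246 to 408 CPM in 3 metastasis libraries and 125 to 206 in 4 primary tumor libraries with at least 20 such cells. Ajap1 reached 195 CPM in metastasis and 326 in primary tumor. Slc6a17 was at 21.3 to 65.0 CPM, Chsy3 at 5.28 to 43.6 and Epha5 at 4.51 to 25.4. Just under the gate, in 651 cells at 0.4 to 0.5%, Hmga2 was at 213 and Slc6a17 at 31.9 CPM, and just above it, in 629 cells at 0.5 to 0.6%, at 202 and 35.2.

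Host cells of tumors held UMIs of the members too. The pigment genes, which host classes should lack, mark melanoma RNA in a class but set no upper limit on it. In B cells, which should lack the members, the metastasis TME of mouse 14 had 0 to 1.90% of 105 cells with a UMI of each member at 1000 UMIs (median 1616 UMIs per cell). A count of 0 allows a share of up to 2.86%, which is above the 1.61% of gated cells with an Epha5 UMI in the sorted metastasis of mouse 14, so that these B cells set no useful limit for the rarer members. Endothelial cells had 0.290 to 1.89 CPM of Hmga2 in lung and 2.57 to 16.7 in primary tumors, where their pigment genes summed to 158 to 1118 CPM. In metastases they had 0 to 34.3 CPM of Hmga2.

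**Figure D5:**
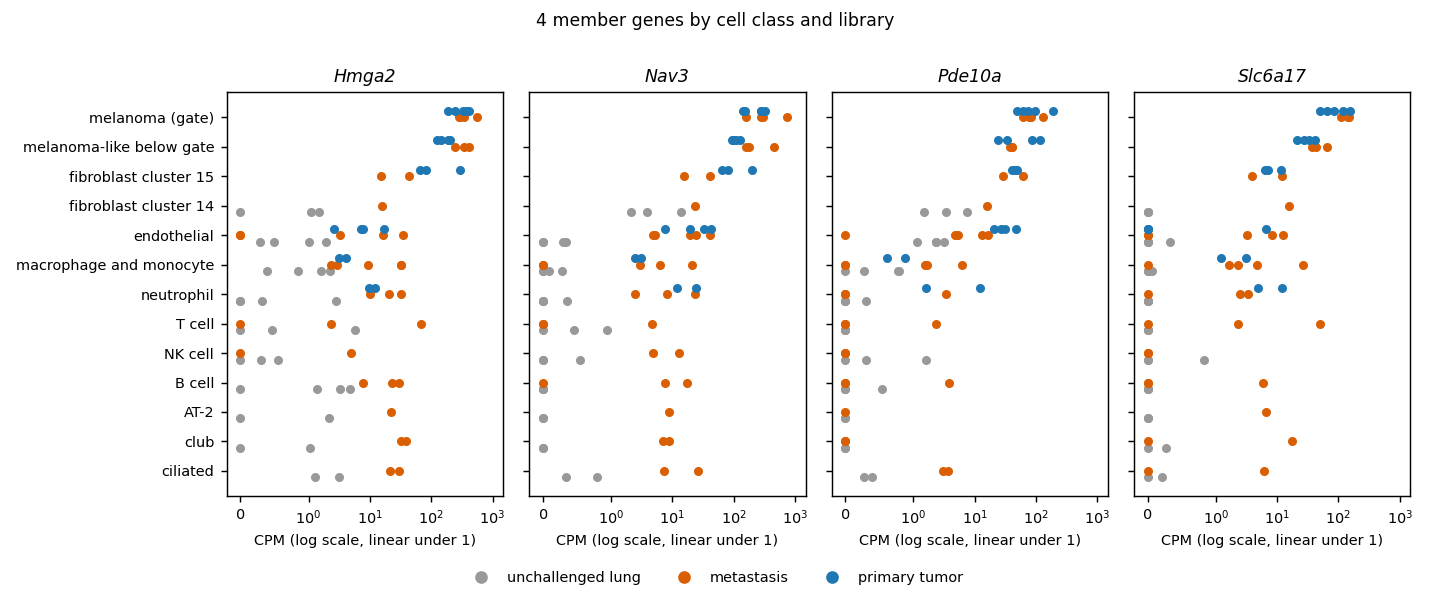
CPM of 4 members (horizontal axis, log scale above 1 and linear below) by cell class, each point being 1 library with at least 20 cells of that class, colored by tissue. Hmga2 in fibroblast cluster 15 reaches 295 CPM in 1 primary tumor library, within the range of gated melanoma cells, while its lung points lie at 5.64 CPM or less.

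A fibroblast-like cluster of tumors, numbered 15, stood out for Hmga2 and Nav3. Its leading genes were Col1a1, Meg3, Col3a1, Col5a3 and Tnc, it had 1515 cells, and 8 of 8 fibroblast markers were raised in it. So were 8 melanoma markers and 5 mural markers, among them Rgs5, and the part of melanoma RNA in its levels was not tested. Hmga2 was at 295 CPM in its 868 cells of the primary tumor of mouse 18, at 65.3 and 81.0 in the primary tumors of mice 13 and 17, and at 43.2 and 15.4 in the metastases of mice 17 and 18. Nav3 followed at 197, 65.3, 81.0, 41.5 and 15.4 CPM. Each primary tumor value was above both metastasis values. The 2 metastasis libraries together held 54 Hmga2 and 52 Nav3 UMIs in 243 cells of the cluster. Only 42 of these cells were of mouse 18, so that its values rest on few UMIs. Host levels were used to choose the members, so this order is a description.

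Pigment UMIs in these cells give the UMIs that melanoma RNA would bring at the ratio of the library's gated cells. That ratio sets no upper limit, since cells under the gate can hold more of a member per pigment UMI. The melanoma-like cluster under the gate had a median pigment share of 0.302%, with Hmga2 at 125 to 408 CPM. In the primary tumor TME of mouse 18, 1096 of 1309 gated cells were under 1500 UMIs with Hmga2 at 144 CPM, against 530 CPM above 6000. In the primary tumor of mouse 18 the cluster held 1061 Hmga2 UMIs, where that ratio gives 111, and 709 of Nav3 where it gives 70.0. For Slc6a17 and Ajap1 the cluster was at 7.22 and 11.4 CPM. Dcn and Lum, fibroblast matrix genes, were at 1746 and 850 CPM in the cluster there. In the metastasis of mouse 17 the cluster held 50 Hmga2 UMIs and the ratio gives 32.2.

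Pde10a had a similar place in host cells. It was at 28.5 to 61.4 CPM in fibroblast cluster 15 over 5 tumor libraries. In endothelial cells it was at 20.5 to 46.8 CPM in 4 primary tumors, 0 to 16.6 in 5 metastasis libraries and 1.16 to 3.16 in 4 lungs. These endothelial ranges rest on 101 Pde10a UMIs in 481 primary tumor cells, 34 in 819 metastasis cells and 34 in 4771 lung cells. Host levels were used to choose the members, so that the ranges are a description. In the primary tumor of mouse 17 the endothelial cells held 22 Pde10a UMIs, where the ratio of gated cells gives 0.825 and sets no upper limit. Nav3 was at 7.73 to 43.5 CPM in endothelial cells of primary tumors, 4.86 to 41.9 in those of metastases, which overlap, and 0 to 0.333 in those of lung.

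In unchallenged lung, the highest values of Etv1, Chsy3, Nav3 and Pde10a over classes and libraries were in fibroblast cluster 14. Etv1 was at 171, 43.2 and 23.8 CPM in that cluster of 3 lungs, and at 29.8 CPM or less in other lung classes. Chsy3 was at 5.52 to 8.64 CPM there (36 UMIs) and Nav3 at 2.16 to 13.7 (24 UMIs), against at most 2.66 and 0.940 CPM in other lung classes. Pde10a was at 1.49 to 7.56 CPM there (15 UMIs), against at most 3.16 CPM elsewhere in lung. Epha5 and Slc6a17 stayed at or under 6.05 and 12.4 CPM in each host class of the tumor TME libraries with at least 100 cells.

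Over 71 sums of a library and class with at least 50 cells, the member pairs had Spearman rho of 0.524 (Pde10a and Epha5) to 0.884 (Nav3 and Hmga2). The points share libraries and differ mostly in holding melanoma cells or not. The genes most like each member, among 9644, were Cspg4 for Nav3 (rho 0.933), Insc for Hmga2 (0.907), Gsta1 for Slc6a17 (0.894), Gstm5 for Etv1 (0.887), Lin7a for Ajap1 (0.881), Plod1 for Pde10a (0.858), Dkk3 for Chsy3 (0.837) and Tpd52l1 for Epha5 (0.789). Within the melanoma cells of 3 sorted libraries, thinned to 3000 UMIs, Pearson's r over cells was between -0.06 and 0.22 for the 28 pairs, and such weak values in sparse counts are no finding.

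Most members are long genes. The spans in GENCODE vM21 are 775 kb for Nav3, 461 for Pde10a, 363 for Epha5, 361 for Chsy3, 115 for Hmga2, 110 for Ajap1, 91.1 for Etv1 and 50.5 for Slc6a17, and the median of 14181 tested genes was 21.2 kb. Neighbours with starts within 2 Mb had median log2 differences between metastasis and primary tumor of -0.13 to 0.24. For Slc6a17 the 56 tested neighbours had a median of -0.08 and ranged from -1.29 to 5.49, beside 1.08 for the gene itself.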

How the data were processed

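Per the labels and the study's methods, single-cell libraries of tdTomato-positive host cells and of tumor cells were made from cryopreserved suspensions, and the authors made the UMI counts with Cell Ranger 6.1.1 on GRCm38 (mm10) and removed cells at quantile limits of quality. The count matrix holds unnormalized UMIs for 110283 barcodes of 24 library names in 1 table. The percent of mitochondrial UMIs per cell was computed by the authors and deposited with the cells. The deposited log-normalized matrix was not used. Of the barcodes, 9924 belong to 5 names whose cells are identical to those of another name and were used once. Names give the group of each library, and some names do not carry the replicate number of a title.

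The members and gene lists were chosen with earlier results of these data known. UMIs were summed per library over cells at the 0.5% gate and, for 3 comparisons, tested with edgeR 4.0.16 (quasi-likelihood test, filterByExpr, TMM, Benjamini-Hochberg over all genes tested, calls at an adjusted p under 0.05). Library was a block where both classes came from 1 library. Standard errors follow from the F statistic. The rule for named genes took the 8 members, up to 4 genes of each list with the smallest adjusted p, and the genes most like each member. Host cells were clustered with Scanpy 1.11.5 (2000 variable genes, 17 components, resolution 0.5) and named where 3 or more markers were raised. No doublet caller was run. Shares of cells use cells thinned to 1000 UMIs, with exact (Clopper-Pearson) 95% intervals and a floor of 3 counts, both covering counting error only. Summed UMIs per sorted library ranged from 2910056 to 60339415. Scripts were tested on simulated data. Alternatives were another normalization, DESeq2 1.42.0, no filter, other gates and depths, other splits, blocks and each library left out. The same-run pairs of sorted libraries (mouse 17 at both sites in run 3, mice 14 and 13 in run 2) had a correlation of deviations of 0.213 over 2 pairs.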

Additional observations from a re-analysis of the deposited data

How the results depend on the processing

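Between metastasis and primary tumor, 1 gene was called. The count was 54 with library size alone, 33 with DESeq2, 112 without a filter, 20 at a gate of 1%, 9 at 1000 UMIs per cell and 9 to 84 with each library left out (83 and 9 without the metastases of mice 17 and 14, 61 and 84 without the primary tumors of mice 13 and 17). It was 0 at a gate of 0.25%, with TME libraries added and with cells of at least 3000 UMIs, where 496, 747 and 628 genes had an unadjusted p under 0.05 in edgeR. The fit with TME libraries counts the metastasis of mouse 17 and the primary tumor of mouse 13 more than once. With the run as a replicate block, a pairing that rests on 1 mouse in run 3 and different mice in run 2, the count was 101. With the libraries left out in turn, the log2 difference was 0.88 to 1.31 for Slc6a17 and 0.36 to 1.13 for Chsy3, and it took both signs for Ajap1, Epha5, Nav3 and Hmga2.

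With cycling, 756 genes were called. The count was 467 with DESeq2, 1139 without a filter, 179 at 1000 UMIs, 86 with no library block, 460 with cycling set at 2 UMIs, 273 in the middle pigment tertile, 2942 in cells of at least 3000 UMIs and 316 to 2102 with a library left out (316 without the metastasis and 336 without the primary tumor of mouse 17, and 2102 without the primary tumor of mouse 13). Ajap1 was at -0.0036 in the middle tertile. Pde10a, Epha5 and Chsy3 were called in 13 of 14 alternatives and Slc6a17 in 8, and of the members that did not pass Etv1 was called in 4 and Nav3 and Ajap1 in 1 each.

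With pigmentation, 494 genes were called, 324 higher and 170 lower. The count was 296 with library size alone (241 higher and 55 lower), 197 with DESeq2, 1170 without a filter, 197 at a gate of 0.25%, 97 at 1000 UMIs, 2146 in cells of at least 3000 UMIs and 15 to 1372 with a library left out (15 and 30 without the primary tumor and the metastasis of mouse 17, and 1372 without the primary tumor of mouse 13, with 321 without the metastasis of mouse 14). With no library block it was 0 in edgeR (213 at an unadjusted p under 0.05). Nav3, at -0.04, was at 0.0336 with library size alone, 0.0874 without the primary tumor of mouse 17, 0.0443 at a gate of 1% and 0.0812 at 1000 UMIs. Ajap1 was called in 10 of 14 alternatives, Chsy3 in 9, Slc6a17 in 8 and Epha5 in 6, and Pde10a, which did not pass with all gated cells, in 5. Library size alone gave Slc6a17, Chsy3 and Epha5 an adjusted p of 0.0516, 0.0593 and 0.0666 (edgeR), DESeq2 gave Chsy3 and Epha5 0.188 and 0.145, and the gate of 0.25% gave Ajap1, Epha5 and Slc6a17 0.125, 0.0627 and 0.0526. At 1000 UMIs Epha5 was at 0.133. Of 112 member values with pigmentation 80 kept their direction and side of the threshold, as did 96 with cycling. Without the library block none of the members called with cycling or pigmentation passed. The causes were not tested. The mean level of Slc6a17 in sorted metastasis, 148 CPM, was 140, 153 and 160 at gates of 0.25% and 1% and at 1000 UMIs, that of Pde10a in primary tumor was 42.3 and that of Etv1 in metastasis 230 at 1000 UMIs. Cycling calls in the metastasis of mouse 14 rest on 24 cells.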

Other observations

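In host cells as a whole, given as values with no test since host levels were used to choose the members, Hmga2 was at 225 CPM in the primary tumor TME of mouse 18 and at 5.91 to 41.3 CPM in the other 3 primary tumor TME libraries. Etv1 was at 41.2 CPM in the former and at 23.6 to 25.5 CPM in the latter. That library also held 868 of the 1515 cells of fibroblast cluster 15.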
